A study of Mus musculus with 6 samples.

Results

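The comparison described here set the Run SI library against the Sed SI library, which were 2 of the 6 single-nucleus RNA-seq libraries of the study and were chosen by their labels. Both came from the prelimbic (PL) region of the medial prefrontal cortex of male C57BL/6 mice of cohort 2. Each library was made from the pooled PL of 3 mice born to different mothers. Run mice were raised until weaning by dams that had access to a running wheel in the postpartum period, and Sed mice by dams kept in standard cages. SI mice were housed singly from weaning, so both libraries share the isolation, and the mice had not been through behavioural tests. The methods of the study describe the animals as adult, whereas the labels give postnatal day 21. The other 4 libraries were a Run GH and a Sed GH library (group housing) of cohort 2 and of cohort 1, whose mice had been in the tube test, and they are used only beside the SI pair. The paper describes the profiled cohort 1 mice as holding the top and bottom ranks of their group, a selection not described for cohort 2. With 1 pooled library a side there was no replicate, and the 95% intervals below reflect how many molecules were counted, while the variation from mouse to mouse was not measured.

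Social isolation after weaning is a widely used stress of the juvenile and adolescent period in rodents, and it is known to alter the development of prefrontal circuits and of social behaviour. The PL contains layered pyramidal neurons, which send excitatory output to other regions, and interneurons that inhibit them, among them the parvalbumin (PV), somatostatin (SST) and vasoactive intestinal peptide (VIP) classes. A nuclear preparation captures mostly unspliced and nuclear-retained RNA, so mitochondrially encoded RNA and many short cytoplasmic mRNAs mark what was carried along from outside the nucleus.

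The Run SI library held 8531 nuclei and the Sed SI library 4997, with medians of 4033 and 3600 UMIs (unique molecular identifiers, each standing for 1 counted RNA molecule) and of 1949 and 1726 genes. Total UMIs over all barcodes were 69344415 and 35993055. Background droplets carried a median of 302 UMIs in Run SI (7.49% of a median nucleus) and 153 in Sed SI (4.25%). Mitochondrially encoded genes gave 0.308% of the UMIs in nuclei of Run SI and 0.162% in Sed SI. The libraries shared 14 cell barcodes, 0.280% of the smaller one. In cohort 2 the Run library was the deeper one also under GH (medians of 3397 and 1637 UMIs), and in cohort 1 it was the shallower one (5586 and 6250 UMIs).

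Nuclei were grouped by rebuilt clusters and named from marker genes, so the classes below are marker-based, apart from the Deptor cluster. That cluster did not meet the naming rule for a pyramidal type and is called by Deptor, which was among its leading genes. Pyramidal nuclei were 6716 of 8531 (78.7%, 95% Clopper-Pearson interval 77.8 to 79.6) in Run SI and 4059 of 4997 (81.2%, 80.1 to 82.3) in Sed SI. In these nuclei the 7 pyramidal markers, Slc17a7 and Neurod6 among them, summed to 4100 CPM (counts scaled to a common total of the class) for Run SI and 4283 for Sed SI. Inhibitory markers, also 7, summed to 43.4 and 34.9 CPM.

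Within the pyramidal nuclei, the layer 2/3 and mid-layer types took a smaller share of all nuclei in Run SI and 2 layer 5 types a larger one. Layer 2/3 nuclei (Cux2, Otof) were 1597 in Run SI and 1162 in Sed SI, a ratio of shares of 0.805 (0.746 to 0.869). The 2 clusters of this type went opposite ways, since the cluster led by Otof held 12.7% (12 to 13.4) of all nuclei in the Run library and 10.4% (9.53 to 11.2) in the Sed library, and the cluster led by Baz1a 6.03% (5.53 to 6.55) and 12.9% (12 to 13.8). Mid-layer nuclei (Scn7a, Vwa5b1) were 965 and 718, a ratio of 0.787 (0.714 to 0.868). The same ratios were 0.885 and 0.845 in the GH pair of cohort 2, and 1.22 and 1.35 in cohort 1, so the direction was not shared by the earlier cohort. Layer 5 nuclei with Chst8 were 931 and 386, a ratio of 1.41 (1.25 to 1.59), against 0.732 under GH. Near-projecting (NP) layer 5 nuclei (Tshz2, Vwc2l) were 433 and 195, a ratio of 1.3 (1.10 to 1.55), against 1.04 under GH. For the Deptor cluster (0.927, 0.839 to 1.02), layer 6 corticothalamic nuclei (CT, Foxp2 and Syt6; 1.05, 0.949 to 1.17) and deep-layer nuclei with Oprk1 (1.00, 0.878 to 1.15) the interval held 1. The tissue was dissected, so the layers included in each block of tissue and the number of nuclei of a type cannot be told apart here.

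PV-like interneurons were 330 nuclei (3.87%) in Run SI and 158 (3.16%) in Sed SI, a ratio of 1.22 (1.01 to 1.49). SST-like nuclei were 266 (3.12%) and 123 (2.46%), a ratio of 1.27 (1.02 to 1.58). For VIP-like nuclei, 138 and 84, the ratio was 0.962 (0.728 to 1.28), and for NPY-like nuclei, 91 and 66, it was 0.808 (0.582 to 1.13). Among glia, oligodendrocyte precursors were 85 and 28, a ratio of 1.78 (1.15 to 2.83) that stood at 2.76 under GH and 3.78 in cohort 1. Astrocytes (237 and 121; 1.15, 0.918 to 1.44), oligodendrocytes (71 and 52; 0.800, 0.551 to 1.17) and microglia (34 and 13; 1.53, 0.788 to 3.16) had intervals that held 1 under SI, and the ratios under GH were 1.94, 2.84 and 3.39. The glial values depended on the limits set for nuclei. The astrocyte ratio was 1.99 with at least 1000 genes per nucleus and 1.51 without the mitochondrial limit, and that of oligodendrocytes was 0.491 with all barcodes within the limits and 1.20 with at least 1000 genes.

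**Figure D1:**
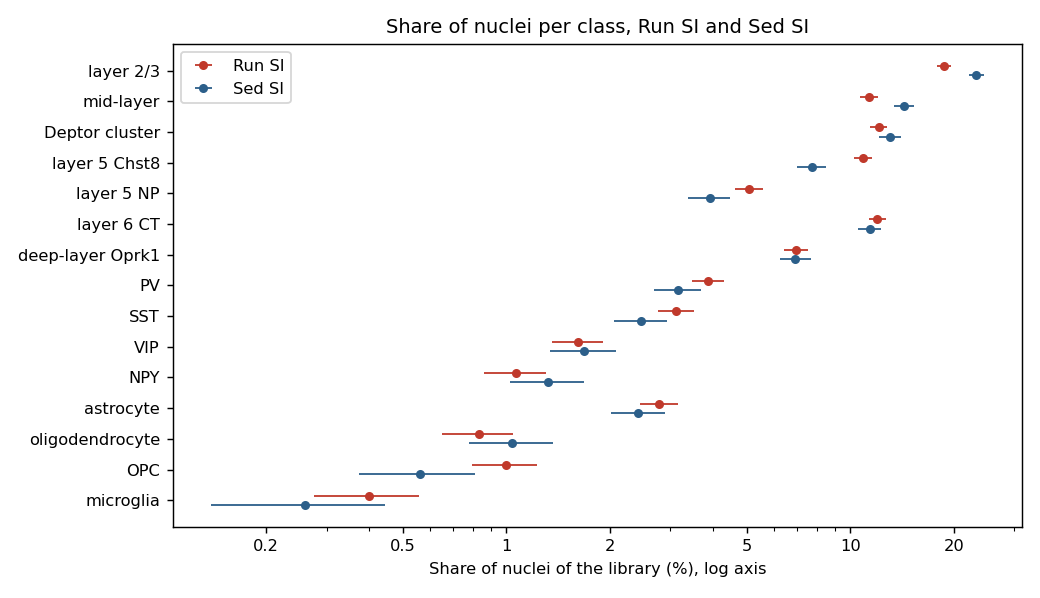
Share of nuclei in 15 classes of the Run SI and Sed SI libraries, as percent of all nuclei on a log axis, with 95% Clopper-Pearson intervals. Layer 2/3 and mid-layer nuclei had a smaller share in Run SI, and layer 5 Chst8 and NP nuclei and oligodendrocyte precursors a larger one.

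Counts were summed per library and class, and a gene with at least 100 counts over both libraries was taken as past the fold when the nearer bound of the 95% interval of its CPM ratio was beyond 1.3-fold. In pyramidal nuclei 271 genes were higher and 360 lower in Run SI of 13188 tested, which was 4.78% of the genes tested (2.05% higher and 2.73% lower). The balance of directions depended on the setting, with 119 higher and 99 lower when each nucleus was thinned to 1000 UMIs. There were 1587 and 884 when the ratio itself had to pass 1.3-fold, and 63 and 177 when the nearer bound had to pass 1.5-fold. The higher genes were mostly protein-coding (251, or 92.6%), whereas 228 of the lower genes (63.3%) were not protein-coding, a kind that made up 12.1% of the genes tested. Of the 1592 non-coding genes tested, 14.3% were lower and 1.26% higher. The median log2 ratio over all genes tested was 0.09. In summed counts a smaller number of nuclei expressing a gene and less RNA per nucleus cannot be told apart.

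The edgeR fit, which took its spread from the GH libraries and had 1 residual degree of freedom, called none of 18707 genes in pyramidal nuclei (0.0%; 120 genes at an unadjusted p under 0.05, and 0 calls by DESeq2 with 35 genes at that unadjusted p). The contrast of the Run to Sed difference under SI with that under GH, where the GH side averages the pairs of both cohorts, also called none (0.0%; 56 genes at an unadjusted p under 0.05, and 0 calls by DESeq2 with 7). The residual degree of freedom of this fit is the change of the Run to Sed difference under GH between the cohorts. Genes that turned direction between the cohorts, as described below, add to that spread. The absence of calls therefore does not show that the libraries were alike. The ratios in pyramidal neurons below are differences between these libraries, and a ratio given for GH or cohort 1 beside them is a value and not a test of the difference.

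The genes past the fold higher in the largest number of classes were mitochondrially encoded. They were led by mt-Co3 (12 of 15 classes tested), mt-Atp6 and mt-Co2 (each 11 of 14). Of the short cytoplasmic mRNAs, Ubb was past the fold in 6 of 11 classes and Rps21 in 5 of 10. These numbers of classes were no larger than those of the non-coding 6530403H02Rik (6 of 7) and of Cdh13 (5 of 12). Of the 13 mitochondrial protein genes, 10 were past the fold higher in pyramidal nuclei and none lower, with a median log2 ratio of 0.83. Over all pyramidal genes tested 2.05% were higher and 2.73% lower. mt-Co3 (chrM:8607-9390, mm10), a subunit of cytochrome c oxidase, stood at 717 CPM in Run SI and 286 CPM in Sed SI, 2.51-fold (log2 1.33, 1.28 to 1.37). mt-Co1, another subunit of that complex, stood at 521 and 290 CPM (log2 0.84), and mt-Cytb, of complex III, at 220 and 115 CPM (log2 0.94). The higher level of mt-Co3 in the Run library was also present under GH (761 and 221 CPM, log2 1.78) and in cohort 1 (60.4 and 29.9 CPM, log2 1.02). When the profile of background droplets was subtracted, mt-Co3 kept a log2 ratio of 1.05, whereas mt-Co1 had 0.48 and was no longer past the fold.

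The share of UMIs from mitochondrial protein genes was higher in Run SI in all 15 classes and in the pyramidal sum. It was 0.290% in Run SI and 0.151% in Sed SI in pyramidal nuclei, 0.380% and 0.189% in PV, 0.364% and 0.198% in SST, and 0.662% and 0.414% in astrocytes. The share from ribosomal protein genes was 0.372% and 0.273% in pyramidal nuclei and 0.764% and 0.605% in astrocytes, and in microglia (0.774% and 0.725%) the intervals overlapped. Background droplets held more UMIs in Run SI than in Sed SI (medians of 302 and 153). The part of this background in the shares was tested only by the subtraction above. In cohort 1 these medians were 1070 UMIs in the Run library and 1202 in the Sed library. Mitochondrial UMIs there were 0.0368% and 0.0157% of those in nuclei.

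**Figure D2:**
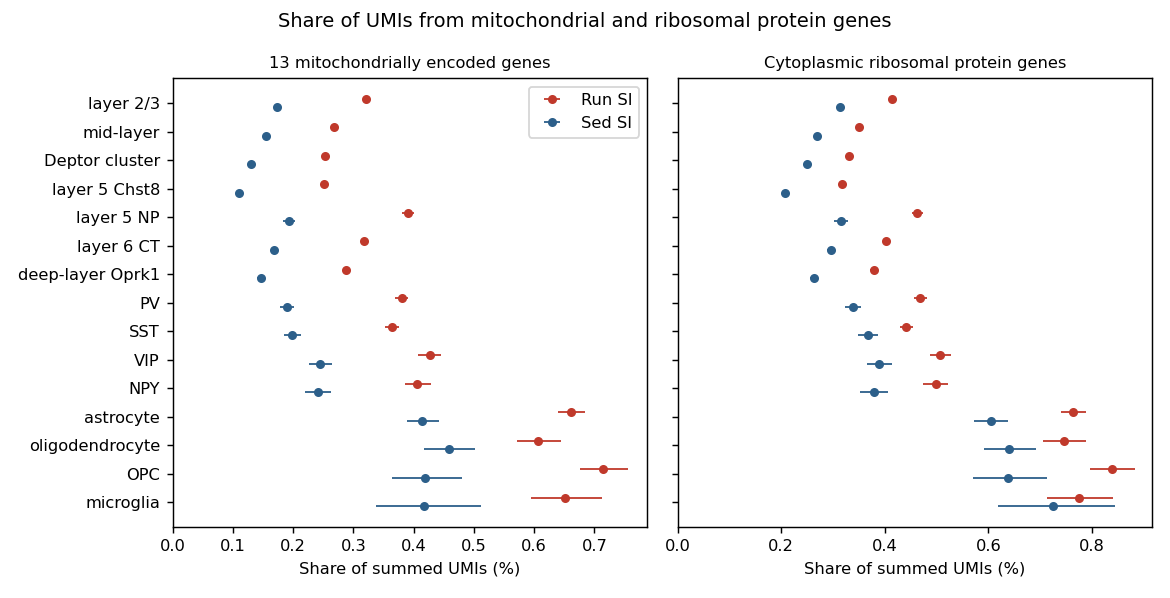
Percent of summed UMIs from 13 mitochondrially encoded protein genes and from ribosomal protein genes in 15 classes of the Run SI and Sed SI libraries. Run SI was higher for mitochondrial genes in every class, for example 0.380% and 0.189% in PV nuclei.

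Of 82 cytoplasmic ribosomal protein genes tested, 27 were past the fold higher and none lower, with a median of 0.46. Counts of the lists here are read against 2.05% of all pyramidal genes higher and 2.73% lower. Rps21 stood at 96.6 and 57.4 CPM (log2 0.75, 0.65 to 0.86), Rpl41 at 98.2 and 65.8 CPM (log2 0.58), and Rpl36a at 19.3 and 10.5 CPM (log2 0.88). Of 44 genes for ubiquitin, chaperones and other abundant cytoplasmic mRNAs, 15 were higher and none lower (median 0.40), among them Ubb, a ubiquitin gene, at 138 and 88.0 CPM (log2 0.65), Tmsb4x, an actin-binding peptide, at 130 and 82.2 CPM (log2 0.66), and Actb, cytoplasmic actin, at 133 and 85.1 CPM (log2 0.65). Of 77 nuclear genes for oxidative phosphorylation, 7 were higher (median 0.36), such as Uqcr10 at 29.6 and 18.2 CPM and Atp5e at 29.9 and 18.7 CPM. After subtraction of the background profile, 7 ribosomal, 2 cytoplasmic and 3 oxidative phosphorylation genes were past the fold and the list medians were 0.11, 0.11 and 0.13. Rps21 was past the fold also then (log2 0.64), and Ubb was not (0.35).

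Several of the higher genes are better known from glia than from neurons. Mt1, a metallothionein, stood at 44.7 CPM in Run SI and 22.5 in Sed SI (log2 0.99, 0.83 to 1.16). Cst3, a protease inhibitor of astrocytes and microglia, stood at 141 and 81.4 CPM (log2 0.80), and Aldoc, a glycolytic enzyme of astrocytes, at 31.1 and 17.3 CPM (log2 0.84). Mfge8, a secreted protein of astrocytes, stood at 7.62 and 2.60 CPM (log2 1.55, 1.09 to 2.04) and Gpr37l1, an astrocyte receptor, at 5.57 and 1.98 CPM (log2 1.49). Both lay far below their level in background droplets (93.6 and 74.1 CPM for Mfge8, 76.8 and 60.6 for Gpr37l1) and had no value left after subtraction. The 9 astrocyte markers together were lower in Run SI pyramidal nuclei (689 and 774 CPM, log2 -0.17), the 7 oligodendrocyte markers stood at 99.4 and 105 CPM, and the 7 microglial markers at 44.8 and 43.2 CPM. Mag, a glycoprotein of myelin, stood at 3.75 and 1.64 CPM (log2 1.19), under its 59.1 and 54.2 CPM in background droplets, and had no value left after subtraction.

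Cdh13 (chr8:118283733-119324921), a cadherin without a cytoplasmic domain, stood at 838 CPM in Run SI and 557 in Sed SI (log2 0.59, 0.56 to 0.62), while its ratio under GH was -0.00 and in cohort 1 -0.57. Kirrel3, a synaptic adhesion molecule, stood at 747 and 479 CPM (log2 0.64, 0.60 to 0.68) against 0.19 under GH. Col23a1, a transmembrane collagen, stood at 62.1 and 31.2 CPM (log2 0.99, 0.86 to 1.13), with 0.26 under GH and -1.54 in cohort 1. Rorb, a nuclear receptor that marks middle layers, stood at 123 and 78.6 CPM (log2 0.65), and Dpyd, which degrades pyrimidines, at 199 and 123 CPM (log2 0.69). Htr4, a serotonin receptor that raises cyclic AMP, stood at 41.7 and 22.3 CPM (log2 0.90, 0.74 to 1.06, GH -0.12), whereas Htr1b, an inhibitory serotonin receptor, stood at 4.12 and 8.6 CPM (log2 -1.06, -1.41 to -0.72, GH -0.51). Those were the receptors past the fold among 23 neuromodulator receptors tested, where 2.05% of all pyramidal genes were higher and 2.73% lower.

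The named genes with the greatest ratios included Morn2 (chr17:80290203-80297476) at 41.3 and 16.2 CPM (log2 1.35, 1.17 to 1.54; 1.71 under GH, 0.13 in cohort 1), Gm13391 at 5.44 and 1.92 CPM (log2 1.5; 1.14 under GH, -1.39 in cohort 1), and Spag16 (chr1:69826970-70725132), a gene of the ciliary axoneme, at 13.4 and 5.15 CPM (log2 1.38, 1.05 to 1.72). The counts of Spag16 came from 169 of 6716 nuclei in Run SI and 60 of 4059 in Sed SI. Layer 6 CT nuclei held 269 of its 435 counts in Run SI and 25 of 91 in Sed SI. Sst, the somatostatin peptide, stood at 25.4 and 13.4 CPM in pyramidal nuclei, far under its 354 and 343 CPM in background droplets.

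Most of the leading lower genes were non-coding RNAs. B230217J21Rik (chr12:46667317-46692992), a long intergenic non-coding RNA, stood at 2.34 CPM in Run SI and 9.11 in Sed SI (log2 -1.96, -2.38 to -1.56). Then came 8030451O07Rik (2.43 and 7.98 CPM, log2 -1.72), 1700110K17Rik (2.98 and 8.99 CPM, log2 -1.59), Gm20319 (5.26 and 15.4 CPM, log2 -1.55), Gm21954, annotated as protein-coding (3.47 and 10.0 CPM, log2 -1.53), and Gm20616 (2.80 and 7.81 CPM, log2 -1.48). The first of these was lower also under GH (log2 -2.31) and higher in cohort 1 (1.95). The log2 ratios under GH and in cohort 1 were -3.42 and 1.59 for 8030451O07Rik, whose counts in cohort 1 were too few for the fold, and -2.01 and 0.88 for 1700110K17Rik. Malat1, an abundant nuclear RNA, was not past the fold (93426 and 118130 CPM, log2 -0.34), and of 29 nuclear-retained or non-coding transcripts listed as a group 1 was higher (Mirg, 120 and 85.5 CPM) and none lower. Over all pyramidal genes tested 2.05% were higher and 2.73% lower, and over the non-coding genes tested 1.26% and 14.3%.

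Among other lower genes, Prpf4b (chr13:34875302-34906064), a kinase of the splicing machinery, stood at 199 CPM in Run SI and 340 in Sed SI (log2 -0.77, -0.82 to -0.72) and had a ratio under 1 in 7 of 7 pyramidal types. Nrg3os, antisense to the neuregulin gene Nrg3 (chr14:38898302-38958794), stood at 282 and 456 CPM (log2 -0.69, -0.74 to -0.65; 1.49 in cohort 1). Ahi1, a gene of the ciliary transition zone, stood at 892 and 1312 CPM (log2 -0.56, -0.58 to -0.53). Ctnna3, an alpha catenin, stood at 250 and 382 CPM (log2 -0.61), Paxbp1 at 109 and 181 CPM (log2 -0.74) and Mast3, a kinase, at 82.7 and 138 CPM (log2 -0.74). Prpf4b and Ahi1 were lower in the Run library of cohort 1 as well (log2 -0.35 and -0.36), and Ctnna3 was higher there (0.90).

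Genes lower in Run SI were to a large extent those lower in the GH pair of cohort 2, which shares no library with the SI pair. Of the 360 lower genes, 276 were past the fold lower under GH as well, 76.7% of the SI list and 45.7% of the 604 genes lower under GH, where 11.5% of 12852 genes were past the fold (4.7% lower). No lower gene was past the fold in the opposite direction, and all 327 that could be tested under GH had the same sign. In cohort 1, where 6.83% of 13395 genes were past the fold (3.55% higher), 3 of the 360 were past the fold lower and 173 (48.1%) higher. The median log2 ratio of the 360 was -0.89 under SI, -1.26 under GH and 0.80 in cohort 1. Background subtraction left 330 of the 360 past the fold. In both pairs of cohort 2 the Run library was the deeper one and had more background UMIs (medians of 302 and 153 under SI, 262 and 82 under GH). In cohort 1 the Run library was the shallower one and had fewer (1070 and 1202). For these genes and the higher genes below, such library differences and the maternal environment cannot be told apart.

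Of the 271 higher genes, 123 were past the fold higher under GH (45.4% of the SI list and 14.0% of the 878 under GH, which are 6.83% of all genes there), none was lower, and 245 of 260 had the same sign. In cohort 1, 26 of them were higher and 19 lower (9.59% and 7.01%, against 3.55% and 3.28% of all genes). Their medians were 0.72 under SI, 0.65 under GH and 0.03 in cohort 1, and 146 were past the fold after background subtraction.

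**Figure D3:**
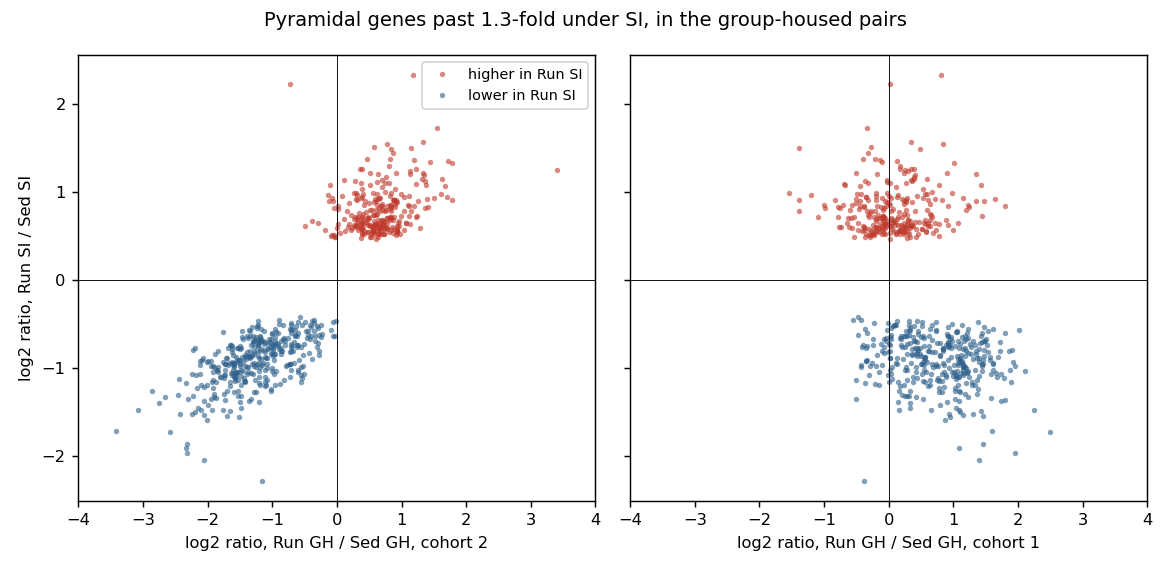
Log2 ratio of Run SI over Sed SI (y axis) for genes past the fold in pyramidal nuclei, against the log2 ratio of Run GH over Sed GH (x axis) in cohort 2 (left) and cohort 1 (right); each point is a gene. In cohort 2 the lower genes lie on the same side (median -1.26), and in cohort 1 most lie on the opposite side (median 0.80).

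The genes that the study listed as differing between Run GH and Sed GH pyramidal neurons of cohort 2 were chosen without the SI libraries. Of 42 listed as higher, 16 were past the fold higher in the SI pair and none lower (median 0.40). Of 45 listed as lower, 33 were past the fold lower and none higher (median -0.63), and in cohort 1 25 of them were higher and 4 lower. Over all pyramidal genes 2.05% were higher and 2.73% lower under SI, and 3.55% higher and 3.28% lower in cohort 1.

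Genes that respond to neuronal activity were a further group that was lower in part. Immediate early genes are transcribed within minutes of synaptic input, many of them through cyclic AMP response elements in their promoters, and their products shape the later response of the neuron. Of 22 tested, 5 were past the fold lower in Run SI, none was higher, and the list median was -0.00, where 2.73% of all genes were lower and 2.05% higher. After background subtraction 5 were also lower, with Egr3 (log2 -0.87) past the fold in place of Nr4a1 (-0.48). Under GH 2 were lower and 1 higher (4.7% and 6.83% of all genes), and in cohort 1 there was 1 in each direction (3.28% lower and 3.55% higher over all genes).

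The promoters of 3 of the genes concerned are shown because the cyclic AMP response element (TGACGTCA) and its shorter core (TGACG, which reads CGTCA on the opposite strand) are the best known motifs of activity-dependent genes. The 300-base windows run from 250 bases before to 50 after a transcription start in the RefSeq table (GRCm38), capitals mark the core or the full element on either strand, and the full element contains the core. Homer1 is read from chr13:93303507-93303806, Nr4a3 from chr4:48045055-48045354 and Pcsk1 from chr13:75089607-75089906, all on the plus strand.
Homer1: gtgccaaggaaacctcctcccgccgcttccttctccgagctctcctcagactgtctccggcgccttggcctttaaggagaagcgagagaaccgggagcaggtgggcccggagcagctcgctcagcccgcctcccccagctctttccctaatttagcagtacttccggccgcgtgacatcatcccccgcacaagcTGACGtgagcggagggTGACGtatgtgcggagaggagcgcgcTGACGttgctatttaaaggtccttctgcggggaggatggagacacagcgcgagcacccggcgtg
Nr4a3: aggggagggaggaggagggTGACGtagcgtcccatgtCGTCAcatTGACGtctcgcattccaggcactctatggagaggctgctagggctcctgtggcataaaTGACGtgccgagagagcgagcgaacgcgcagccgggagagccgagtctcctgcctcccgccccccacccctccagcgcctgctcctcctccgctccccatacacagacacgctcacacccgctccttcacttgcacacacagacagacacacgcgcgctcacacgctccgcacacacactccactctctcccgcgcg
Pcsk1: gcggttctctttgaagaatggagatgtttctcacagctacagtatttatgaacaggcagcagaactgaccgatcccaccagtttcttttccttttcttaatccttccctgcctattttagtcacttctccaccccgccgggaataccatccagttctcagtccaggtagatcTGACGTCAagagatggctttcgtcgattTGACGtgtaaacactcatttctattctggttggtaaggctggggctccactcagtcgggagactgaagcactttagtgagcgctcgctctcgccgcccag
The core occurred 3 times in the Homer1 window, 4 times in that of Nr4a3 and 3 times in that of Pcsk1, and among the promoters of Bdnf, Homer1, Nr4a1, Nr4a3, Per1, Pcsk1 and Etv5 only the Pcsk1 window held the full element. Of the 32851 windows counted, which leave out 1 chromosome, 6837 (20.8%) held the core and 588 (1.79%) the full element. Of the windows of these genes, 1 of 7 for Bdnf, 1 of 2 for Homer1, 1 of 1 for Nr4a1, Nr4a3 and Pcsk1, 2 of 2 for Per1 and 0 of 2 for Etv5 held the core. A match describes the letters of the window and not a used site. These genes were picked from those lower in Run SI after their values were seen. The windows of Fos, Arc, Npas4 and Egr1, which were not lower, were not read. Whether the motifs differ between lower and other genes was therefore not tested.

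Homer1 (chr13:93299635-93405129), a postsynaptic scaffold with a short form that activity induces, stood at 201 CPM in Run SI and 312 in Sed SI pyramidal nuclei (log2 -0.63, -0.68 to -0.58) and had a ratio under 1 in 7 of 7 pyramidal types, past the fold in 6. Under GH it stood at 249 and 331 CPM (log2 -0.41, not past the fold), and in cohort 1 it was higher (0.63). The counts do not separate its short from its long form. Nr4a3 (chr4:48045153-48086447), an orphan nuclear receptor, stood at 8.09 and 13.6 CPM (log2 -0.75, -1.01 to -0.49, GH -1.21), and its relative Nr4a1 at 61.8 and 86.6 CPM (log2 -0.49, -0.58 to -0.39, GH -0.35). Bdnf (chr2:109674700-109727007), a neurotrophin of synapse growth, stood at 26.8 and 40.2 CPM (log2 -0.58, -0.73 to -0.44) and had a ratio under 1 in 4 of 5 types. Per1 (chr11:69095217-69109960), a clock gene that glucocorticoids and activity also induce, stood at 13.5 and 21 CPM (log2 -0.64, -0.85 to -0.44).

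Of the classical early markers of activity, 4 had ratios above or near 1. Fos stood at 4.77 and 3.73 CPM (log2 0.35, -0.07 to 0.79), Arc at 10.9 in each library (log2 0.01, -0.25 to 0.27), Npas4 at 11.3 and 9.73 CPM (log2 0.22, -0.04 to 0.49) and Egr1 at 21 and 17.1 CPM (log2 0.30, 0.10 to 0.50), none past the fold. Egr3 stood at 7.38 and 11.3 CPM (log2 -0.61, -0.89 to -0.33), a value close to that of Homer1 (-0.63), and was not past the fold.

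Pcsk1 (chr13:75089826-75134861), the prohormone convertase that cuts neuropeptide precursors, and Etv5, an ETS transcription factor (chr16:22381309-22439719), were the lower genes of 4 or more classes that were past the fold in no class under GH. Pcsk1 stood at 22.5 CPM in Run SI and 44.1 in Sed SI, 1.96-fold lower (log2 -0.97, -1.12 to -0.82), and had a ratio under 1 in 6 of 6 pyramidal types. Its log2 ratio was -0.52 under GH, not past the fold, and 0.74 in cohort 1. In mid-layer nuclei it stood at 17.6 and 46.3 CPM (log2 -1.39) and in CT nuclei at 21.2 and 42.0 CPM (log2 -0.99). Etv5 stood at 72.6 and 103 CPM (log2 -0.51, -0.60 to -0.42, GH -0.25) and had a ratio under 1 in 7 of 7 types.

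Lists of stress, clock and neuropeptide genes had 1 or 2 members past the fold, where 4.78% of all pyramidal genes were. Fkbp5, a glucocorticoid-induced chaperone of the glucocorticoid receptor, stood at 29.7 and 23.4 CPM (log2 0.34, 0.18 to 0.51, GH -0.07) and was not past the fold. Of 14 glucocorticoid-responsive genes tested 1 was lower (Per1) and the median was -0.08. Of 19 clock genes 1 was higher (Rorb) and 1 lower (Per1), with a median of -0.20, against -0.03 under GH. Of 10 neuropeptide genes 1 (Sst) was higher. Xist, which males do not express, had 6 counts in Run SI and 3 in Sed SI.

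In the lists of synapse and ion channel genes, counts past the fold are to be read against 2.05% of all pyramidal genes higher and 2.73% lower. None of 5 NMDA receptor genes (median 0.04), 7 metabotropic glutamate receptor genes (-0.06), 12 GABA-A receptor genes (0.04) and 18 calcium channel genes (0.06) was past the fold. Of 11 AMPA and kainate receptor genes 1 was higher, Grik1 (50.1 and 32.2 CPM, log2 0.64; GH 0.02), and of 27 potassium channel genes 1, Kcnip1 (38.4 and 26.0 CPM, log2 0.56). Tenm3, a teneurin (277 and 192 CPM, log2 0.53), was the member past the fold among 35 synaptic adhesion genes, and Vamp2, the synaptic vesicle SNARE (56.8 and 38.6 CPM, log2 0.56, 0.37 after subtraction), among 33 presynaptic genes. Of 26 cadherins and contactins, Cdh13 was higher and Cntnap3, a contactin-associated protein, lower (3.63 and 6.34 CPM, log2 -0.80). Homer1 was the lower gene among 19 postsynaptic scaffolds. Under other scalings several of these small medians turned sign, as given in the closing values, so no direction is drawn from them.

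The pyramidal types were then compared one by one. Layer 2/3 nuclei had 159 genes higher (1.7%) and 162 lower (1.74%) of 9332, 3.44% in all, but the libraries differed in which clusters held the class. A cluster with Otof held 1083 of 1597 Run SI nuclei (67.8%, 65.5 to 70.1) and 518 of 1162 Sed SI nuclei (44.6%, 41.7 to 47.5), and a cluster with Baz1a held the rest. Values are therefore given also within the 2 clusters, Otof first, where they were computed. Of 6 marker lists of other pyramidal types, 4 were higher in Run SI layer 2/3 nuclei, with the 5 layer 5 IT markers at 182 and 102 CPM (log2 0.83), the Chst8 type markers at 120 and 68.8 CPM (0.80), the CT markers at 126 and 76.4 CPM (0.72) and the mid-layer markers at 100.4 and 65.6 CPM (0.61), each of these 3 a list of 6. The NP list (log2 0.14, -0.01 to 0.30) and the Oprk1 list (-0.13, -0.52 to 0.27) had intervals that held 0, and the 6 layer 2/3 markers stood at 1018 and 1007 CPM (0.01). Within the clusters the CT marker Hs3st4 had log2 ratios of 2.14 and 0.75, and the part of these markers in the values below was not tested. Tox, a transcriptional regulator, stood at 108 and 38.5 CPM in the class (log2 1.49) with 1.17 and 1.86 within clusters, and was similar under GH (1.37). It is one of the 5 layer 5 IT markers and gave 108 of their 182 CPM in Run SI and 38.5 of their 102 CPM in Sed SI. The shift of that list is therefore not separate from that of Tox. Glis3, a zinc finger factor, stood at 77.4 and 28.0 CPM (log2 1.47; 1.21 and 0.99 within clusters), and Cpne7, a calcium-dependent membrane-binding protein, at 25.6 and 8.71 CPM (log2 1.55; 0.87 and 2.22). Among lower genes, Gm34544 stood at 41.6 and 133 CPM (log2 -1.68; -0.80 and -1.40), Gm15680 at 10.3 and 30.7 CPM and Gm16183 at 16.2 and 47.2 CPM, the last 2 as values of the whole class, with the mix of clusters not taken out.

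Homer1 and Pcsk1 were also read within the layer 2/3 clusters, and no difference between clusters was tested. Homer1 stood at 153 and 155 CPM in the Otof cluster (log2 -0.02, -0.23 to 0.19) and at 278 and 381 CPM in the Baz1a cluster (log2 -0.45, -0.60 to -0.31), past the fold in neither, although it was past it in the class as a whole. Pcsk1 stood at 11.9 and 32.3 CPM in the class (log2 -1.45), with -0.39 (-1.33 to 0.61) in the Otof cluster and -1.14 (-1.64 to -0.66) in the Baz1a cluster. By contrast Prpf4b (-0.85 and -0.88) and mt-Co3 (1.16 and 1.28) were much alike in both.

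Mid-layer nuclei had 65 genes higher and 101 lower of 8107 (2.05%), and the Deptor cluster 88 and 109 of 8568 (2.3%). Dscaml1, a homophilic adhesion molecule, was among the leading higher genes of both, at 48.3 CPM in Run SI and 18.6 in Sed SI in mid-layer nuclei (log2 1.38; GH 0.04) and at 106 and 36.0 CPM in the Deptor cluster (log2 1.55; GH 0.47). The other leading genes of mid-layer nuclei were 6530403H02Rik (log2 1.37) and Morn2 (1.34) on the higher side, and Gm16183 (-1.49) and Gm43948 (-1.42) on the lower. In the Deptor cluster, Dkk2, a secreted modulator of Wnt signalling, stood at 33.6 and 11.7 CPM (log2 1.52). Morn2 had 1.41 there, and 4930587E11Rik (-1.74), Gm15520 (-1.46) and 1700111E14Rik (-1.40) led the lower genes. Inhibitory markers stood at 34.7 and 23.8 CPM in mid-layer nuclei (log2 0.54) and at 35.5 and 23.1 CPM in the Deptor cluster (0.62), and their part in these values was not tested.

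Layer 5 Chst8 nuclei had more higher than lower genes past the fold, with 166 genes higher and 57 lower of 7715 (2.89%; 2.15% higher and 0.739% lower). Nnat (chr2:157560078-157562522), the imprinted gene for neuronatin, stood at 92.6 CPM in Run SI and 15.8 in Sed SI, 5.85-fold (log2 2.55, 2.06 to 3.08), while the GH pair had 17.5 and 24.2 CPM (log2 -0.46). Col23a1 stood at 43.7 and 8.36 CPM (log2 2.39, GH -0.41), and Fstl4, a follistatin-like secreted protein, at 94.4 and 21.1 CPM (log2 2.16, GH 0.52). The marker genes of the class moved too. Chst8 itself stood at 146 and 219 CPM (log2 -0.59, past the fold), the 6 markers of the class together at 780 and 926 CPM (log2 -0.25), and the 6 NP markers at 77.2 and 42.7 CPM (log2 0.85). The part of these marker shifts in the values of Nnat, Col23a1 and Fstl4 was not tested. On the lower side Gm34544 (-1.51), 4930587E11Rik (-1.07) and Lrtm1 (-0.97) led, and mt-Co3 had a log2 ratio of 1.59.

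In NP nuclei 46 genes were higher and 13 lower (0.323%) of 4019, 1.47% in all. Fstl5, another follistatin-like gene, stood at 159 and 51.4 CPM (log2 1.63, GH 1.27), followed by mt-Co3 (1.31) and mt-Atp6 (1.16), with 9630028H03Rik (-1.05), Paxbp1 (-0.89) and Gm15155 (-0.81) lower. CT nuclei had 79 higher and 68 lower of 7512 (1.96%). There Kirrel3 stood at 87.5 and 33.1 CPM (log2 1.40, GH 0.73), and Agrp, which is best known as a feeding peptide of the hypothalamus, at 24.5 and 62.6 CPM (log2 -1.35, GH -1.31, cohort 1 0.81). The Agrp counts cover the whole annotated gene (chr8:105566698-105637393) with introns included, and do not single out the mRNA of the peptide. Spag16 stood at 58.8 and 11.2 CPM in CT nuclei (log2 2.40, 1.80 to 3.05), but its counts came from few nuclei, 54 of 1022 and 8 of 569, and a single nucleus gave 28 of the 269 counts in Run SI and 7 of 25 in Sed SI. Gm34544 (-1.62) and Gm43376 (-1.10) were also lower. Oprk1 nuclei had 69 higher and 37 lower of 5965 (1.78%), led by Rai14 (72.0 and 29.6 CPM, log2 1.28), mt-Co3 (1.34) and Rhbdl3 (55.2 and 25.8 CPM, log2 1.09), with 4933424G05Rik (-1.11), Gm34544 (-0.95) and A330015K06Rik (-0.94) lower. Markers of other types moved with these classes. Mid-layer markers stood at 190 and 113 CPM in NP nuclei (log2 0.74) and at 144 and 84.5 CPM in CT nuclei (0.77). Oligodendrocyte markers stood at 95.1 and 52.9 CPM in NP nuclei (0.85), inhibitory markers at 44.0 and 61.7 CPM in CT nuclei (-0.49), and NP markers at 38.4 and 22.1 CPM in Oprk1 nuclei (0.80). Their part in the values of these 3 types was not tested.

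PV interneurons are fast-spiking cells that inhibit pyramidal neurons near the soma. The class was the sum of 3 clusters, 2 of which (called here by Il1rapl2 and by Antxr2, each one of their 10 leading genes) had a gene listed as a marker of a pyramidal type and no PV marker among their 10 leading genes, so values are given cluster by cluster with the sum beside them. The Il1rapl2 and Antxr2 clusters and another, called by Eya1 in the same way, held 153, 93 and 84 nuclei of Run SI and 94, 34 and 30 of Sed SI. The 7 PV markers summed to 1608 and 1712 CPM, 1308 and 1553 CPM, and 2098 and 1981 CPM in the 3 clusters. In the sum 22 genes were higher and 11 lower of 3217 (1.03%), and in the clusters 8 and 9 of 1459 (1.17%), 11 and 5 of 668 (2.4%), and 6 and 2 of 536 (1.49%). The balance in the sum turned after background subtraction, with 8 higher and 11 lower.

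Of genes that led other classes, mt-Co3, Prpf4b and Nrg3os had the same sign in all 3 PV clusters. Among them, mt-Co3 was past the fold in each and stood at 937 and 427 CPM, 903 and 291 CPM, and 973 and 342 CPM, with log2 ratios of 1.13, 1.64 and 1.51. Prpf4b had log2 ratios of -1.25, -0.85 and -0.86 and was past the fold in the first 2 clusters (306 and 637 CPM in the sum), and Nrg3os had -0.90, -0.76 and -1.19 and was past it in the Il1rapl2 and Eya1 clusters (233 and 450 CPM in the sum). In the sum Rpl41 stood at 147 and 52.0 CPM (log2 1.5), mt-Cytb at 295 and 122 CPM (1.27), Ubb at 197 and 91.5 CPM (1.11) and mt-Co1 at 692 and 326 CPM (1.08). Luzp2 (459 and 800 CPM, -0.80), Gm20642 (199 and 325 CPM, -0.70) and Il1rapl2 (650 and 1144 CPM, -0.82) were lower. In the 3 clusters Luzp2 had log2 ratios of -0.63, -1.10 and 1.13 (the last on 21 and 3 counts, -0.62 to 3.51), and Il1rapl2 had -0.66, -2.02 and 0.58 (on 24 and 5 counts in the last, -0.84 to 2.33).

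Further genes were past the fold within a PV cluster. In the Il1rapl2 cluster Negr1, an adhesion molecule of the IgLON family, stood at 1400 and 888 CPM (log2 0.66) and Il1rapl2 itself, a synaptic adhesion receptor, at 1330 and 2099 CPM (-0.66). In the Antxr2 cluster Satb1, a chromatin organiser of interneurons, stood at 401 and 210 CPM (0.93). In the Eya1 cluster Trpc4, a cation channel, stood at 378 and 114 CPM (1.73), Grm7, an inhibitory presynaptic glutamate receptor, at 320 and 124 CPM (1.36), and Cadm2, a synaptic adhesion molecule, at 689 and 1224 CPM (-0.83). The differences between clusters were not tested.

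The edgeR fit of the PV sum called 1 of 10964 genes (0.00912%), mt-Co3 (log2 1.29, adjusted p = 0.00447, with 342 genes at an unadjusted p under 0.05), and DESeq2 called 0 (13 genes at that unadjusted p). The next genes, 4930447N08Rik (log2 -2.55) and Prpf4b (log2 -1.10), were not called. The contrast of the Run to Sed difference under SI with that under GH called 2 genes (0.0182%), Adarb2 and Spon1, and 0 with DESeq2 (6 genes at an unadjusted p under 0.05). Adarb2, an RNA-binding protein that marks other interneurons, stood at 105 and 46.6 CPM under SI (log2 1.17, 0.55 to 1.84) and at 11.0 and 138 CPM under GH. A single nucleus gave 89 of its 127 counts in Run SI and another 23 of 26 in Sed SI, and without them the values were 31.6 and 5.45 CPM. Its direction turned between clusters, with 33 and 1 counts in the Il1rapl2 cluster (log2 4.11, 1.53 to 9.46), 1 and 24 in the Antxr2 cluster (-5.61, -10.97 to -2.99) and 93 and 1 in the Eya1 cluster (4.86, 2.34 to 10.18). Spon1, an extracellular matrix protein, stood at 90.9 and 37.7 CPM under SI (log2 1.27) and at 34.7 and 54.5 CPM under GH, with log2 ratios of 1.94 (0.21 to 4.32, on 22 and 3 counts), 1.17 (0.40 to 2.02, on 78 and 17 counts) and 1.64 (-1.17 to 7.08, on 10 and 1 counts) in the 3 clusters. The GH values of Adarb2 and Spon1 given here are of cohort 2, whereas the GH side of the contrast averages both cohorts. Markers of other types moved in both directions in the PV sum. The 7 pyramidal markers stood at 580 and 439 CPM (log2 0.40, 0.19 to 0.62), which were higher in each of the 3 clusters (648 and 534, 493 and 316, and 546 and 353 CPM). NP markers stood at 68.6 and 19.7 CPM (log2 1.80, 0.88 to 2.85) and SST markers at 1691 and 1433 CPM (0.24, 0.12 to 0.36). Mid-layer markers were lower, at 826 and 1305 CPM (-0.66, -0.80 to -0.52), as were layer 2/3 markers, at 490 and 599 CPM (-0.29, -0.49 to -0.09). Il1rapl2, whose values in the sum are given above, is one of the mid-layer markers and gave most of their CPM in both libraries. The lower value of that list is therefore not separate from that of Il1rapl2. The 7 VIP markers stood at 128 and 78.9 CPM, and Adarb2, one of them, gave 127 of their 155 counts in Run SI and 26 of their 44 counts in Sed SI. Their part in these values was not tested.

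Of the genes the study listed as lower in Run GH PV neurons of cohort 2, 38 could be tested in PV of the SI pair, where 1 was higher and 2 lower with a median of 0.00. Over all 3217 PV genes 0.684% were higher and 0.342% lower, and the counts of each list in PV are read against these shares. Of those in both of its PV lists, for Run GH and for Sed SI against Sed GH, 35 could be tested, with 1 higher and 1 lower and a median of 0.06. The second list was chosen with the Sed SI library and is not independent of it. For the pyramidal list of lower genes, 4 of 30 were lower in PV and none higher, with a median of -0.55.

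SST-like nuclei had 13 genes higher and 13 lower of 2530 (1.03%). There mt-Co3 stood at 896 and 362 CPM (log2 1.31), mt-Co2 at 546 and 252 CPM (1.12) and Stmn3, a regulator of microtubules, at 215 and 108 CPM (1.00). Lrtm1 (chr14:29018208-29033645), a transmembrane protein with leucine-rich repeats, stood at 56.0 CPM in Run SI and 188 in Sed SI (log2 -1.74, -2.26 to -1.23; GH -2.04). It was the 1 gene of 10823 that edgeR called in SST nuclei (0.00924%; log2 -1.77, adjusted p = 0.0206, 323 genes at an unadjusted p under 0.05). DESeq2 called 0 in SST nuclei, with 14 genes at that unadjusted p. None differed between SI and GH by edgeR (0.0%; 275 genes at that unadjusted p, and 0 calls by DESeq2). A330015K06Rik (-1.10), Nrg3os (-0.99), Gm20642 (-0.95) and Prpf4b (-0.83) were lower as well, and Sst itself stood at 114 and 111 CPM (0.04). The 7 pyramidal markers stood at 711 and 445 CPM in SST nuclei (log2 0.68, 0.44 to 0.92), and their part in these values was not tested.

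In VIP-like nuclei 11 genes were higher and 8 lower of 1080 (1.76%), with mt-Co3 at 977 and 455 CPM (log2 1.10) and Prpf4b at -0.98. Vip stood at 121 and 208 CPM (log2 -0.79, -1.35 to -0.22) and was not past the fold. In NPY-like nuclei 4 were higher and 12 lower (1.48%) of 813, 1.97% in all, with mt-Co3 at 1.18 and Prpf4b at -0.97.

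Astrocytes, which clear transmitters and supply neurons, had 22 genes higher (1.93%) and 9 lower of 1140, 2.72% in all. Dpp10 (chr1:123321471-124045559), a subunit of A-type potassium channels in neurons, stood at 838 CPM in Run SI and 302 in Sed SI (log2 1.47, 1.10 to 1.86). It was higher also under GH (638 and 295 CPM, 1.11) and had -0.30 in cohort 1, and a single nucleus gave 51 of its 438 counts in Run SI. Within the 4 astrocyte clusters its log2 ratios were 1.62, 0.94, 2.44 and 1.74. Nrg3, a neuregulin, stood at 388 and 142 CPM (1.45, GH 0.69), Lrrtm4, a postsynaptic adhesion protein, at 224 and 66.7 CPM (1.75, GH -0.01), Meg3, a maternally expressed non-coding RNA, at 901 and 427 CPM (1.08, GH 0.04), and Nrg1 at 348 and 156 CPM (1.16).

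The lower genes of astrocytes included Pigk, of glycolipid anchor attachment, at 214 and 454 CPM (-1.08), Prpf4b at 274 and 502 CPM (-0.88) and Paqr8 at 473 and 756 CPM (-0.68). The defining genes of the class were alike, with Slc1a2, the main glutamate transporter, at 6894 and 7386 CPM (-0.10) and Gpc5 at 7026 and 7293 CPM (-0.05). The 7 pyramidal markers stood at 821 and 614 CPM in astrocytes (log2 0.42, 0.14 to 0.71), none of them at 0 in either library, and their part in the neuronal genes above was not tested. mt-Co3 stood at 1540 and 720 CPM (1.10) and at a log2 ratio of 0.12 after subtraction.

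The edgeR fit called 7 of 9768 genes in astrocytes (0.0717%; 475 at an unadjusted p under 0.05, and 0 calls by DESeq2). They were Dpp10 (log2 1.42, adjusted p = 6.78e-05), mt-Co3 (1.04, 0.0213), Nrg3 (1.40, 0.0213), Meg3 (1.03, 0.0410), Lrrtm4 (1.69, 0.0419), and Ptprd and Kcnip4 (1.01 and 1.06, each with an adjusted p of 0.0465), all higher in Run SI. The contrast with the GH difference called Dscaml1 and Dpp10 (0.0205%, adjusted p = 0.0336 for both), and 0 with DESeq2 (28 genes at an unadjusted p under 0.05). The GH side of this contrast averages both cohorts. For Dpp10 the ratio under SI was near that of the GH pair of cohort 2 and far from that of cohort 1, so this call does not show a difference between SI and GH within cohort 2. Dscaml1 rested on 43 counts in Run SI and 2 in Sed SI, against 26.1 and 84.2 CPM under GH.

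Oligodendrocytes had 29 genes higher (8.43%) and 28 lower (8.14%) of 344, 16.6% in all, the largest share of the classes tested, in 71 and 52 nuclei. The class mixed a cluster of newly formed cells with Bmp4 and Enpp6 (26 and 10 nuclei) and a mature cluster with Opalin and Mog (45 and 42 nuclei). Mog, a surface protein of mature myelin, stood at 525 and 1088 CPM (log2 -1.05; -0.70 within the mature cluster), and Mobp, another myelin protein, at 822 and 1742 CPM (-1.08; -0.81). Mbp stood at 4612 and 6586 CPM (-0.51) and was not past the fold. In the mature cluster the interval of Mog (-1.13 to -0.28) reached inside 1.3-fold, and that of Mobp (-1.16 to -0.46) did not. Within the mature cluster Nrxn3, a neurexin of neurons, stood at 1079 and 241 CPM (2.17), and Meg3 had 1.55. Lhfpl3, listed as a marker of oligodendrocyte precursors, stood there at 795 and 152 CPM (2.39, on 81 and 12 counts). The part of markers of other cells in these values was not tested. Oligodendrocyte precursors (0 higher and 3 lower of 269, 1.12%) and microglia (2 higher and none lower of 62, 3.23%) had few genes with enough counts.

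Across classes that do not contain each other, 27 genes were past the fold higher and 38 lower in 4 or more. Of the higher, 26 were protein-coding and 9 mitochondrial, and 12 were past the fold in 4 or more classes under GH too, whereas 8 were so in no class there. mt-Co3 was higher in 12 of 15 classes tested, mt-Atp6 and mt-Co2 in 11 of 14, Cst3 in 7 of 11, Morn2 in 6 of 6, Mt1 in 6 of 7 and Ubb in 6 of 11. Mt1, Cdh13 (5 of 12), Rpl41 (5 of 10), Rps21 (5 of 10), Col23a1 (4 of 6), Rftn1 (4 of 6), Rplp1 (4 of 10) and Atp6v0c (4 of 11) were the 8 without a class under GH. Of the 38 lower, 15 were protein-coding and 27 were past the fold in 4 or more classes under GH. Prpf4b was lower in 12 of 12 classes, Nrg3os in 9 of 11, Gm20642 in 8 of 11, Ctnna3 in 8 of 12, Ahi1 in 7 of 12 and Homer1 in 6 of 9, against 2 classes for Homer1 under GH. The 6 classes of Homer1 include layer 2/3, where it was past the fold in neither cluster. Whether these counts differ between the housing conditions was not tested. The share of all genes testable in 4 or more classes was not computed, under SI or GH, so no excess is read from these counts. The counts under GH also rested on fewer molecules, with 9680898 UMIs in pyramidal nuclei of Sed GH in cohort 2 and 17679624 in Sed SI.

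**Figure D4:**
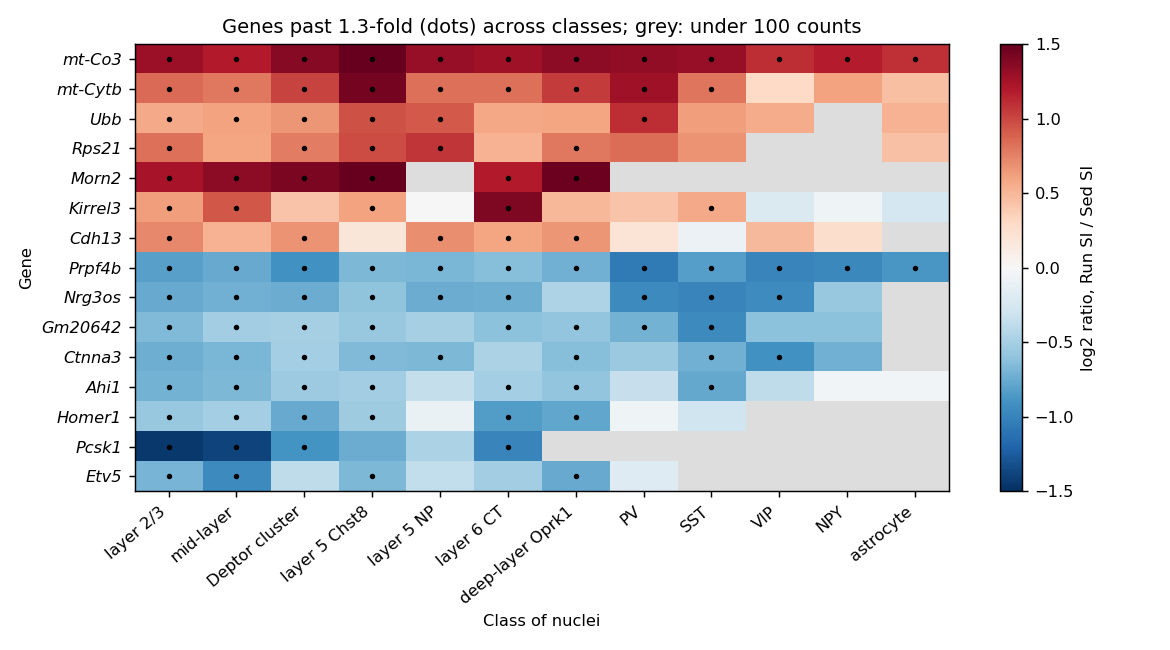
Log2 ratio of Run SI over Sed SI for 15 genes (rows) in 12 classes (columns), with a dot where the gene was past the fold and grey under 100 counts. The genes were picked, after their values were seen, from those past the fold in 4 or more classes; mt-Co3 is higher and Prpf4b lower in nearly every class, while the dots of Homer1, Pcsk1 and Etv5 lie in pyramidal types.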

How the data were processed

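Nuclei of PL tissue were profiled with the 10x Chromium 3' V3 kit, and the authors deposited raw UMI counts per gene and barcode for each library. Per the methods and the submitters' processing notes they used Cell Ranger 6.0.0 and mm10 with introns included, while the headers of the deposited files name an earlier version of that program. Nuclei were called and clusters rebuilt here, since the counts cover all barcodes. No column held samples of another series (other sample columns: 0).

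A nucleus needed 500 to 4000 genes, at most 1% mitochondrial UMIs and a minimum of UMIs, the 99th percentile of the largest barcodes (as many as the study gives nuclei) divided by 10, which was 1587 in Run SI and 1369 in Sed SI. This left 8531 of 9342 and 4997 of 5687 barcodes within the other limits. Doublets were kept, and scrublet (expected 6%) marked 4.65% and 3.36%. The cohorts were clustered on Pearson residuals (theta 100) of 3000 genes with 35 components, 20 neighbours and Leiden resolution 0.6 (scanpy 1.11.5, leidenalg 0.10.2), and inhibitory nuclei again with 20 components. Clusters were named from marker lists, with at least 3 detected markers, except for the Deptor cluster, which met no rule for a pyramidal type. The members, lists and markers were chosen with earlier results of these data known, and the resolution of the inhibitory clustering and rules for mixed clusters were set after numbers of nuclei per cluster had been seen. Nuclei with mixed markers are not described, nor are other nuclei of no type apart from the share of the inhibitory ones.

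Counts were summed per library and class and compared by the log2 ratio of CPM with exact conditional Poisson 95% intervals for genes with 100 counts. Intervals and floors cover counting error only. Named genes were, with at least 200 counts, up to 6 per direction with the largest ratio past the fold in pyramidal nuclei, 5 in PV and 3 in other classes, then genes past the fold in 4 classes, up to 4 members of a list past the fold, genes of an edgeR call, and Fos, Arc, Fkbp5 and Xist. Genes shown within clusters, promoters, single nuclei, oligodendrocytes, undecided members and marker genes were named after their values were seen. edgeR 4.0.16 (TMM, quasi-likelihood, Benjamini-Hochberg at 0.05, R 4.3.3) was fitted to sums of all 6 libraries with cohort and the 4 groups, 1 residual degree of freedom, and checked on simulated counts. It assumes that SI libraries vary like GH libraries. DESeq2 1.42.0 was the other tool. The study's sheets gave gene names and direction for lists only. Alternatives covered the limits, clustering, doublets, background, thinning, scaling, count minimum and fold. Other software was scipy 1.17.1 with numpy 2.4.6 under Python 3.11.15, and matplotlib 3.10.9 with pandas 2.3.3. Not every result for the marker and myelin genes is reported here.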

Additional observations from a re-analysis of the deposited data

Results flagged for a closer look

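In the edgeR fit over the 6 libraries, the contrast of the Run to Sed difference under SI with that under GH was past the threshold for 4 genes. The GH side of the contrast averages the pairs of cohort 2 and cohort 1. In PV nuclei the difference of differences on the log2 scale was 2.16 for Adarb2 and 2.46 for Spon1, with an adjusted p of 0.0151 for both. In astrocytes it was 3.85 for Dscaml1 and 1.31 for Dpp10, with an adjusted p of 0.0336 for both. For Dpp10 the log2 ratio was 1.47 under SI, 1.11 under GH in cohort 2 and -0.30 in cohort 1, so the call does not show a difference between housing conditions within cohort 2. Each was past the threshold with edgeR and not with DESeq2, and the values for astrocytes were not past it without a filter on low counts, where the smallest adjusted p was 0.0819. The counts of Adarb2 in PV nuclei came mostly from 1 nucleus in each SI library, and those of Dscaml1 in astrocytes from 25 of 237 nuclei in Run SI and 2 of 121 in Sed SI.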

How the results depend on the processing

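The values below changed by more than 1.5 times (counts of genes), to outside their interval (shares) or by more than the median half-width of the members' intervals (medians), and among single genes past the fold none turned direction. The balance of higher and lower genes in pyramidal nuclei (271 and 360) turned when thinned (119 and 99) and with the ratio itself past 1.3-fold (1587 and 884). That last setting also turned it in layer 2/3 (159 and 162, then 1359 and 619), mid-layer (65 and 101, then 974 and 506) and Deptor nuclei (88 and 109, then 1219 and 485). Thinning turned it in layer 2/3 (40 and 34), and background subtraction in PV (22 and 11, then 8 and 11). The oligodendrocyte share turned with at least 1000 genes, as the Deptor share did with all barcodes. The cause of each change was not tested beyond the setting itself. No paired analysis was possible because each group had 1 library and the replicate numbers carry no pairing.

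With DESeq2 in place of edgeR there were 0 calls in PV (1 with edgeR), SST (1) and astrocytes (7), and 0 for the difference between housing conditions in PV (2) and astrocytes (2). Without a filter on low counts edgeR called 2 genes in SST, 3 in astrocytes and 0 for the astrocyte difference.

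With all barcodes within the limits, the ratio of shares was 1.05 for the Deptor cluster and 0.491 for oligodendrocytes, and 58 astrocyte genes were past the fold (31 otherwise). With at least 1000 genes per nucleus the ratios of shares were 0.712 for mid-layer nuclei, 1.99 for astrocytes and 1.20 for oligodendrocytes, and without the mitochondrial limit 1.51 for astrocytes.

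Genes past the fold numbered 30 in NP, 19 in PV and 16 in astrocytes with the background subtracted (59, 33 and 31 otherwise). With a minimum of 200 counts they were 35 in NP, 94 in CT, 64 in Oprk1, 17 in PV, 17 in SST and 19 in astrocytes, and with 50 counts 65 in PV, 53 in SST and 52 in astrocytes. With the nearer bound past 1.5-fold they were 240 in pyramidal nuclei, 132 in layer 2/3, 51 in mid-layer, 73 in Deptor, 92 in Chst8, 12 in NP, 40 in CT, 31 in Oprk1, 15 in PV, 11 in SST and 11 in astrocytes. With the ratio itself past 1.3-fold they were 2471, 1978, 1480, 1704, 1830, 815, 1461, 1204, 649, 487 and 273 in the same order. With each nucleus thinned to 1000 UMIs they were 218, 74, 31, 34, 40, 11, 29, 15, 9, 5 and 12.

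Medians of gene lists in pyramidal nuclei under TMM factors were -0.0233 for NMDA receptors, 0.0741 for AMPA and kainate receptors, -0.12 for metabotropic glutamate receptors, -0.0077 for calcium channels, -0.0534 for potassium channels, -0.0303 for synaptic adhesion, 0.0113 for cadherins and contactins, -0.0275 for postsynaptic scaffolds, 0.0041 for nuclear-retained transcripts, -0.115 for the study's PV list of lower genes and -0.0394 for genes in both PV lists. With the median ratio of all genes set to 0 the same medians were -0.0548, 0.0426, -0.152, -0.0392, -0.0849, -0.0619, -0.0202, -0.059, -0.0274, -0.147 and -0.071, and GABA-A receptors had -0.057, presynaptic genes -0.0621, mitochondrial genes 0.734, layer transcription factors -0.0057, and the study's pyramidal lists 0.308 for higher and -0.729 for lower genes.

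With the background subtracted the medians were 0.112 for cytoplasmic mRNAs, 0.654 for mitochondrial genes, 0.0222 for neuropeptides, 0.19 for myelin genes, 0.115 for ribosomal proteins, 0.133 for oxidative phosphorylation, -0.017 for the study's PV list of higher genes and 1.297 for mitochondrial genes in PV. Thinned, they were -0.254 for myelin genes, -0.0006 for layer transcription factors, -0.0186 for genes in both PV lists and 0.6004 for glucocorticoid-responsive genes in PV. Removing doublets, clustering log-normalized values and a resolution of 1 for the inhibitory nuclei (chosen after seeing the data) moved none of these counts, shares or medians past those limits. Over the single genes named, 111 of their values under an alternative lay outside the interval and 1653 did not. The number of libraries, 1 a side, limits every statement to counting error.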
